A study of Mus musculus with 4 samples.

Results

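B cells of CT26 tumours are described here as the cell barcodes of 2 tumour libraries that passed a gate on a few genes, so the members were chosen by their measured UMIs of Cd79a, Cd3d, Cd3e, Cd3g, Tyrobp and Rhox5, and the levels of those genes are given as description. A barcode had to hold at least 200 detected genes, at most 10% of its unique molecular identifiers (UMIs, which count distinct captured transcripts) from mitochondrial genes, and at least 2 UMIs of Cd79a, the signalling chain of the B cell receptor. It could hold no UMI of the T cell receptor genes Cd3d, Cd3e and Cd3g, at most 1 UMI of Tyrobp, an adaptor of myeloid and natural killer cells, and at most 2 UMIs of Rhox5, a gene of the carcinoma cells. The gate kept 647 of 20496 tumour barcodes that passed the filters on genes and mitochondrial share, and the 4 libraries of the series held 42163 barcodes in all. These members were 398 barcodes of the NanoCa tumour library and 249 of the mock tumour library. The same gate kept 4020 of 21281 lymph node barcodes, 2229 with NanoCa and 1791 with mock, and these are set beside the tumour members throughout.

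The study profiled mouse tumours of CT26, a colon carcinoma cell line, and the tumour-draining lymph nodes (TDLN) by droplet single-cell RNA-seq, with 1 library for each tissue and treatment. NanoCa is a lipid nanoparticle with a calcium crystal that was made, per the series title, for immunotherapy through interferon beta. The mock libraries are tagged as untreated, while the protocol field of all 4 libraries names NanoCa, so every ratio of NanoCa to mock rests on the sample names and treatment tags. All animals were female, aged 4 to 8 weeks, and carried CT26 tumours. Strain, dose, route, time of sampling and the number of mice behind a library were not stated in the labels. Cells were stained for CD45, the leukocyte surface protein encoded by Ptprc, and sorted, but the gate is not given, and 1 batch date covers all libraries. With 1 library per group there is no replicate error and no test. Each interval below is an exact 95% interval that covers counting error only, so a difference beyond it separates these libraries, not the treatments or tissues.

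B cells carry membrane immunoglobulin, signal through the Cd79a and Cd79b chains, and present antigen on MHC class II. Resting follicular B cells express IgM and IgD together and recirculate between blood and lymph nodes under receptors such as Ccr7, Cxcr5 and S1pr1. After antigen contact some enter germinal centres, where they divide, mutate their antibody genes and switch isotype, and some become plasma cells, which secrete antibody joined by Jchain. B cells also infiltrate many tumours, where germinal-centre and plasma cell states can be found.

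The label of B cells held for most members by genes the gate did not use. Of 7 other B lineage genes, among them Cd79b, Fcmr, Ms4a1, Cd22, Pax5 and Ebf1, at least 3 were detected in 69.1% of tumour NanoCa members, 73.1% of tumour mock members, 96.9% of TDLN NanoCa barcodes and 97.5% of TDLN mock barcodes. None of the 7 was detected in 8 and 6 tumour members with NanoCa and mock, and Cd79b was missing in 118 and 97. Ms4a1, which encodes CD20, was detected in 56.3%, 62.2%, 85.5% and 87.6% of gated barcodes. The order of libraries was the same (tumour NanoCa, tumour mock, TDLN NanoCa, TDLN mock). Ms4a1 was detected in 0.179% to 2.03% of the T barcodes of those libraries, which carried UMIs of the Cd3 genes and none of Cd79a or Tyrobp. Because barcodes with Cd79a were left out, the T shares do not show the level of mixed droplets. They can understate the background of B cell RNA. Members were shallower in the tumour, with median UMI counts of 1859, 2132, 3805 and 3839, while T barcodes had medians of 2093, 2482, 4402 and 4388. Thinned to 1000 UMIs per barcode, which 391, 248, 2209 and 1785 gated barcodes allowed, Ms4a1 was detected in 36.6%, 41.9%, 44.8% and 50.4%, so the gap between tissues was smaller at equal depth. Cd79b, thinned, was at 51.9% and 36.3% in the tumour and at 47.4% and 48.6% in the node. Cd79b, the second signalling chain of the receptor, was thus detected more often in the NanoCa than in the mock tumour at equal depth.

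**Figure D1:**
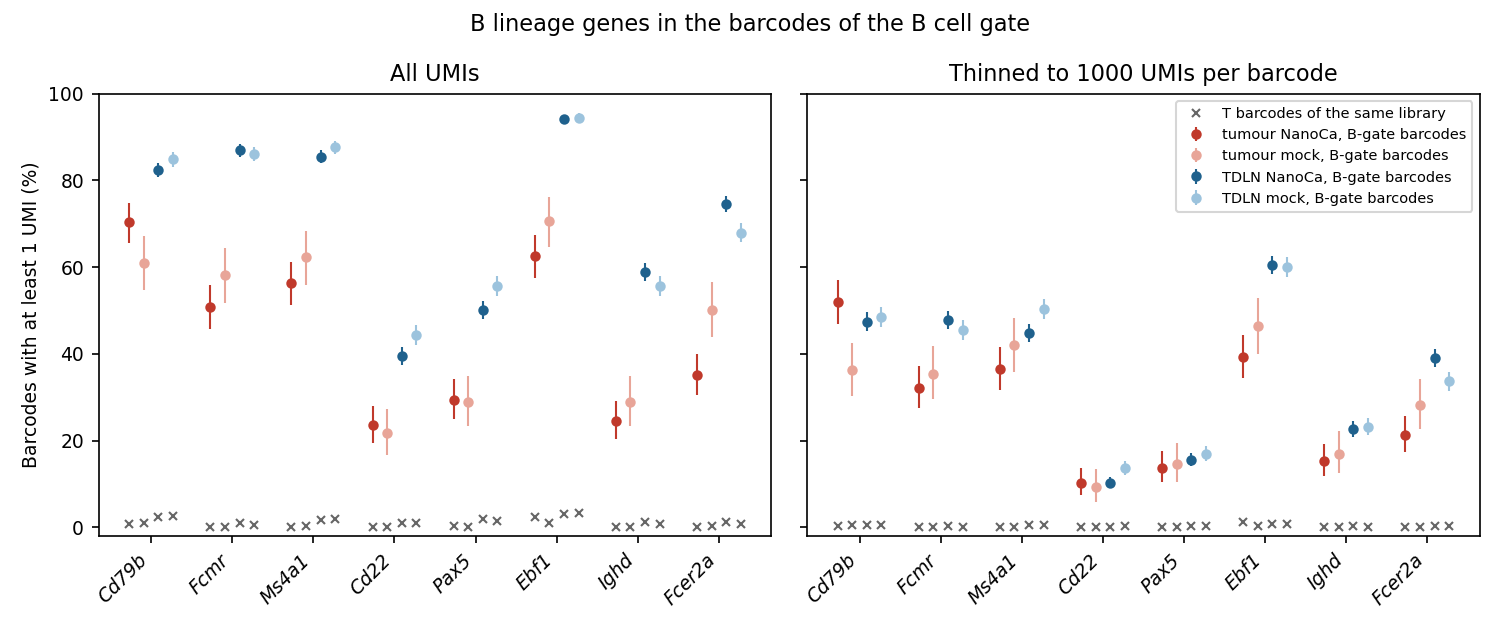
Percentage of gated barcodes with at least 1 UMI of each gene (y axis) for 8 B cell genes (x axis), before (left) and after (right) thinning to 1000 UMIs, with circles for the 4 libraries, exact 95% bars, and crosses for the T barcodes of the same libraries. The crosses stay near 0, the tumour circles lie below the node circles on the left, and for Ms4a1 the 4 libraries lie between 36.6% and 50.4% on the right.

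The threshold on Cd79a decided many members. Cd79a had a median of 5 and 6 UMIs per member in the tumour against 13 and 14 in the node, and 72 and 25 tumour members sat exactly at 2 UMIs. A further 81 and 51 tumour barcodes had 1 UMI and met every other condition, and of these 21 and 5 held Cd79b. At the upper limits, 57 and 40 tumour members had 1 UMI of Tyrobp and 19 and 8 had 2 of Rhox5, while 9 and 6 barcodes were left out at 2 UMIs of Tyrobp and 6 and 4 at 3 of Rhox5. Scrublet, a doublet caller, marked 11 and 4 tumour members, which were kept. Pairs of libraries shared 121 to 183 barcode sequences, but between a tumour and another library only 1 sequence was a gated barcode in both, in the 2 mock libraries.

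B cells made up a small share of the tumour barcodes and a larger one of the node barcodes. They were 3.55% (3.21 to 3.91) of kept barcodes in the NanoCa tumour and 2.68% (2.36 to 3.03) in the mock tumour, a log2 ratio of 0.40 (0.17 to 0.64). Among barcodes with a UMI of Ptprc they were 8.80% and 6.50%, a log2 ratio of 0.44 (0.13 to 0.74). In the node they were 20.2% and 17.4%, a log2 ratio of 0.21 (0.12 to 0.31), which came to 0.036 (-0.063 to 0.14) among barcodes with Ptprc. At full depth the tumour share was thus higher with NanoCa over either denominator, and the node share over all kept barcodes alone. The size of the tumour ratio depended on depth and gate. With all barcodes thinned to 1000 UMIs before the gate the tumour shares were 2.53% and 2.15%, a log2 ratio of 0.23. It was 0.27 with at least 3 UMIs of Cd79a and 0.61 with Cd79b also required. No intervals are given for these alternative ratios, so whether each lies beyond counting error is not shown. The unstated sort gate can set these shares.

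Within the tumour, a minority of members carried germinal-centre genes. At least 2 UMIs summed over 5 markers, among them Bcl6, Mef2b, S1pr2 and Rgs13, were found in 76 NanoCa members (19.1%, 15.4 to 23.3) and 33 mock members (13.3%, 9.30 to 18.1), beside 13.3% and 24.5% in the node with NanoCa and mock. After thinning the shares were 10.7%, 6.85%, 4.75% and 10.7%. The node with NanoCa was below the node with mock, whereas the tumour intervals overlapped. These barcodes were large, with median UMI counts of 4626 and 4936 in the tumour against 1769 and 2088 in the other members, and held 37.2% and 28.8% of all member UMIs. The count of UMIs used to choose them grows with depth, and the part of depth in their choice was not tested.

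Genes outside the 5 markers separated the same members. Basp1, a membrane protein abundant in germinal-centre B cells, was at 591 CPM (the summed UMIs of a gene over all UMIs of the summed barcodes, on the usual per-library scale) in the NanoCa members with the markers and 21.7 CPM in the others, and at 804 and 5.84 CPM with mock. Gcsam, a germinal-centre signalling protein, was at 137 and 2.71 CPM with NanoCa and at 116 and 1.95 CPM with mock. Eaf2, an elongation factor linked to germinal centres, was at 256 and 24.4 CPM with NanoCa. The genes of recirculating cells ran the other way. Ccr7, which guides cells to the T zone of lymph nodes, was at 29.8 CPM in NanoCa members with the markers and 759 CPM in the others, and at 24.1 and 775 CPM with mock. Klf2, a factor of quiescence and egress, was at 220 and 931 CPM with NanoCa and 294 and 1158 CPM with mock. Ly6d, a surface protein of the B lineage, had 0 and 78 UMIs in members with and without the markers with NanoCa and 1 and 61 with mock. Mki67 or Top2a, genes of dividing cells, was detected in 68.4% of NanoCa members with the markers and 22.4% of the others, and in 66.7% and 32.4% with mock, without correction for the greater depth of the former. Thinned to 1000 UMIs, it was detected in 12 of the 42 NanoCa members with the markers and in 66 of all 391, and in 6 of 17 and 53 of 248 with mock. For each gene alone, unthinned, Mki67 was detected in 16.8% and 17.3% of all tumour members and in 12.5% and 14.5% of tumour T barcodes. Top2a was detected in 26.1% and 28.1% of all tumour members and in 20.4% and 27.25% of tumour T barcodes. Ighd, the IgD heavy chain lost on isotype switching, was detected in 2.63% and 29.8% with NanoCa and in 9.09% and 31.9% with mock. Both tumour libraries therefore held barcodes split along the axis of germinal-centre against recirculating genes, as the node libraries did for Ighd (33.3% and 62.8% with NanoCa, 21.0% and 66.9% with mock).

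**Figure D2:**
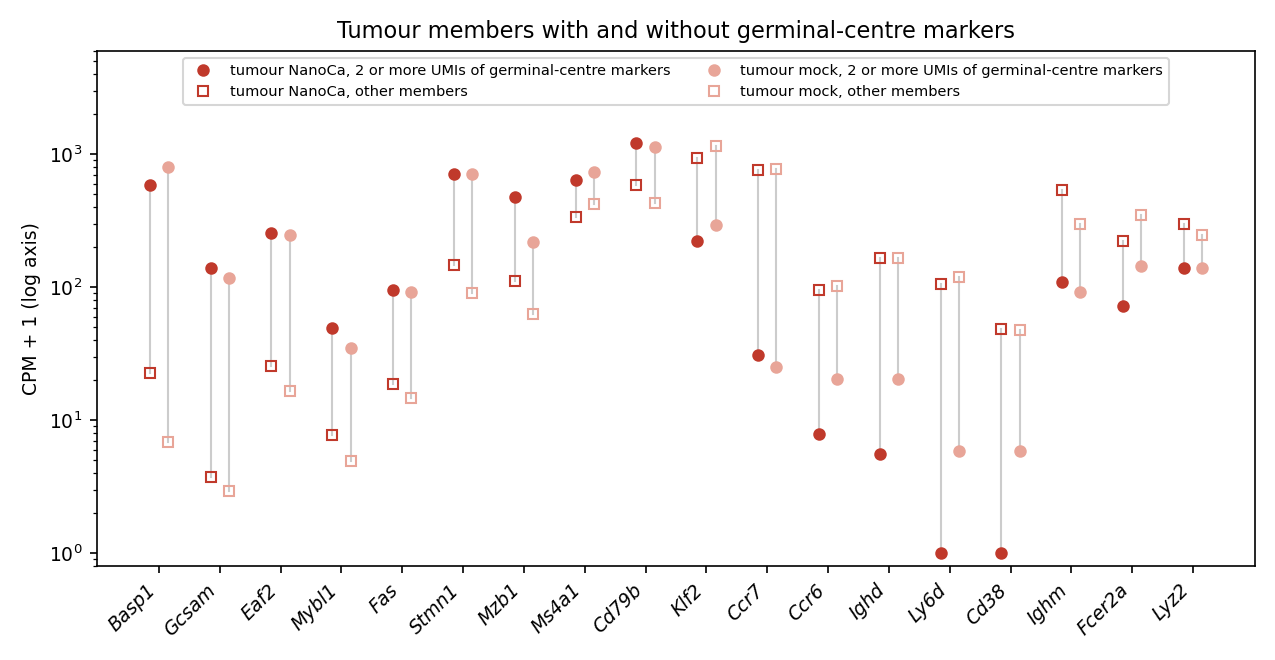
Level of 18 genes (x axis) in CPM + 1 on a log axis (y axis) in tumour members with at least 2 UMIs of the 5 germinal-centre markers (filled circles) and in the other members (open squares), for the NanoCa and mock libraries. Basp1, Gcsam and Eaf2 are higher in the circles, and Ccr7, Klf2 and Ighd in the squares, in both libraries.

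IgM and IgD transcripts were detected in more members than switched isotypes. Ighm was detected in 42.5% and 44.2% of tumour members and in 10.7% and 11.4% of tumour T barcodes. The kappa constant gene Igkc was detected in only 0.895% and 0.843% of those T barcodes. The source of Ighm in T barcodes was not tested. Ighd was detected in 24.6% and 28.9% of tumour members, 58.9% and 55.7% of node barcodes, and under 1.23% of T barcodes in every library. Thinned, Ighd came to 15.3%, 16.9%, 22.6% and 23.1%, with the intervals of the NanoCa pair apart and those of the mock pair overlapping. A switched constant gene was detected in 15.6% of NanoCa members (12.2 to 19.5) and 8.43% of mock members (5.30 to 12.6), and after thinning in 6.65% and 1.61%, beside 2.90% and 5.71% in the node. The order of treatments was thus opposite in the 2 tissues, which was not tested. Ighg1, the IgG1 heavy chain, was the switched gene seen most, with 170 and 78 UMIs in the tumour libraries. Ighg3 had 30 UMIs in 2.01% of NanoCa members and none in mock members, and Ighg2b had 19 and 1. Igha, the heavy chain of IgA, had 4 and 1 UMIs.

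Light chains differed between the 2 tumour libraries. A lambda constant gene (Iglc1, Iglc2 or Iglc3) was detected in 79.9% of NanoCa members (75.6 to 83.7) and 65.9% of mock members (59.6 to 71.7), beside 79.8% and 84.1% in the node. Thinned, the values were 58.8%, 39.9%, 43.8% and 46.3%. Igkc, the kappa constant gene, was detected in 53.8% and 60.2% of tumour members, and both classes together in 44.0% and 45.4%. Iglc2 was at 666, 414, 453 and 418 CPM, so the NanoCa tumour stood above the other 3 libraries, with a log2 ratio of 0.68 (0.49 to 0.88) over the mock tumour. The lambda constant transcripts were common here beside a lambda variable gene in only 12.1% and 13.3% of tumour members. A kappa variable gene was detected in 92.7% and 92.8%, and 83 and 75 of the 160 kappa variable genes in the files had at least 1 UMI. The lambda constant genes are near copies of one another, and how reads were split between them is not given.

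Single members carried much of the Jchain and antibody RNA of the NanoCa tumour. Jchain was at 580, 201, 265 and 616 CPM. Of its 682 UMIs in the NanoCa tumour, 331 came from 1 member with 18852 UMIs, of which 48.9% were immunoglobulin or Jchain transcripts, including 5272 of the variable gene Igkv1-117 and 170 of Ighm. This member had 2 UMIs of Cd79a and none of Cd79b, at the limit of the gate. A second NanoCa member, with 6953 UMIs, 48 of Cd79a and 51 of Ighg1, had 26.3% immunoglobulin and Jchain transcripts and held 133 of the 248 UMIs of Slpi, a secreted protease inhibitor. No tumour mock member and no TDLN NanoCa barcode reached 20%, and 2 TDLN mock barcodes did. The plasma cell regulator Prdm1 had 1 and 9 UMIs in the tumour libraries, and Sdc1, the plasma cell surface proteoglycan, had 9 and 7.

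For NanoCa against mock in the tumour, a gene was called when it had at least 50 UMIs over both libraries, its CPM differed at least 1.5-fold and the interval of the ratio excluded equality. Of 5359 genes measured, 333 (6.21%) were called higher and 297 (5.54%) lower with NanoCa, and the median log2 ratio of all was -0.00046. In the node 464 of 10785 genes (4.30%) were called higher and 1192 (11.1%) lower, with a median of -0.039. The lists that follow were chosen with earlier results of these data known, and their counts are read against those percentages.

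Genes of resting, recirculating B cells tended to be lower in the NanoCa tumour and higher in the NanoCa node. Of 15 naive and follicular genes 4 were called lower and 1, Ighm, higher in the tumour, with a median log2 ratio of -0.30, while 4 were called higher and 0 lower in the node, with a median of 0.45. Ighm rested on 1 member that held 170 of its 444 UMIs in the NanoCa tumour, and was not called without it. Fcer2a, the low-affinity IgE receptor CD23 of follicular B cells, was at 167, 291, 451 and 295 CPM. Its log2 ratio of NanoCa to mock was -0.80 (-1.09 to -0.52) in the tumour and 0.61 (0.55 to 0.68) in the node, so the NanoCa tumour was the lowest library and the NanoCa node the highest. Satb1, a chromatin organiser, was at 129, 259, 469 and 339 CPM and was called lower with NanoCa in the tumour (interval -1.32 to -0.69). Among 15 homing and egress genes 3 were called lower and 0 higher in the tumour (median -0.36), and 5 of 17 higher and 0 lower in the node (median 0.41). S1pr1, the sphingosine 1-phosphate receptor that lets lymphocytes leave tissue, was at 26.4, 56.8, 63.1 and 45.3 CPM, a tumour log2 ratio of -1.11 (-1.83 to -0.40). P2ry10, a G protein-coupled lysophospholipid receptor, was at 47.6, 114, 233 and 149 CPM (-1.25, -1.77 to -0.75). For both genes the NanoCa tumour was the lowest of the 4 libraries. Klf2 was at 667, 909, 1563 and 602 CPM and passed the call in the node (1.38, 1.33 to 1.42), not in the tumour (-0.45, -0.60 to -0.30).

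Among 20 immediate-early genes 3 were called lower and 1 higher in the tumour (median -0.37), and 6 higher and 2 lower in the node (median 0.39). The tumour median came to -0.12 after thinning to 1000 UMIs. Nr4a1, a nuclear receptor induced by antigen receptor signalling, was at 455, 1029, 1646 and 848 CPM. Its log2 ratio was -1.18 (-1.34 to -1.01) in the tumour and 0.96 (0.92 to 0.99) in the node. Its relative Nr4a3 was at 29.8, 65.2, 134 and 68.2 CPM (-1.13, -1.80 to -0.47, in the tumour), and Btg2, an antiproliferative gene, at 323, 571, 684 and 537 CPM (-0.82, -1.03 to -0.62). Egr1, an early growth response factor, was the member called higher, at 665, 417, 305 and 252 CPM (0.67, 0.48 to 0.87). In tumour T barcodes Nr4a1 had a log2 ratio of -0.24 and Egr1 of 0.74, so the ratio of Egr1 was seen outside B cells as well. Nr4a1 was at 0.35 in tumour carcinoma barcodes and at -0.75 in tumour myeloid barcodes. In the myeloid class it was called lower, so a lower Nr4a1 was not limited to B cells. Of 20 genes of B cell receptor signalling, Dapp1, an adaptor, was called lower and none higher (median -0.16), a share near that of all genes, and in the node 1 was called lower and 0 higher. Of 15 NF-kappaB targets 2, Rel and Nfkbid, were called lower (median -0.28). Rel, the NF-kappaB subunit c-Rel, was at 331, 510, 817 and 557 CPM (-0.62, -0.83 to -0.42). Cd86, a costimulatory ligand for T cells, was at 111, 191, 299 and 233 CPM (-0.78, -1.14 to -0.42).

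For MHC class II genes few calls were made between treatments. Of 11 measured in the tumour, H2-DMb1, a peptide-loading subunit, was called lower (-0.79, -1.38 to -0.20) and none higher, with a median of -0.38, and none of 12 was called in the node, with a median of 0.24. The tumour median came to -0.099 after thinning to 1000 UMIs. Cd74, the invariant chain, was at 12930, 17220, 25950 and 20880 CPM, and H2-Aa, a class II alpha chain, at 4798, 6583, 10550 and 7885 CPM. Their tumour ratios, -0.41 and -0.46, stayed under 1.5-fold. The 22 B cell identity genes had 2 called lower and none higher in the tumour, Fcer2a and Ralgps2, with a median of -0.19.

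Germinal-centre, plasma cell and cell cycle genes ran the opposite way. Of 14 germinal-centre genes 2 were called higher and 0 lower in the tumour (median 0.43), whereas 10 of 16 were called lower and 0 higher in the node (median -0.68). Mef2b, a transcription factor of germinal-centre B cells and 1 of the 5 markers above, was at 208, 122, 162 and 281 CPM. Its log2 ratio was 0.77 (0.42 to 1.14) in the tumour and -0.79 (-0.88 to -0.71) in the node. Klhl6, an adaptor needed for germinal centres, was at 142, 77.6, 105 and 158 CPM (0.87, 0.43 to 1.33, in the tumour). Of 12 plasma cell genes 4 were called higher and 0 lower in the tumour (median 0.49). In the node 4 of 14 were called lower and 1 higher, with a smaller median of -0.17. The genes called higher in the tumour were Jchain, Mzb1, Creld2 and Txndc5, the last 3 proteins of the endoplasmic reticulum. All but Creld2 were also called without the member that held most of each gene. Mzb1 was at 247, 107, 190 and 361 CPM (1.21, 0.85 to 1.59). Of 24 cell cycle genes 5 were called higher and 0 lower in the tumour (median 0.25) and 14 lower and 0 higher in the node (median -0.66). Rrm2, a subunit of ribonucleotide reductase, was at 145, 45.7, 54.4 and 110 CPM (1.67, 1.12 to 2.25), and Ccna2, cyclin A2, at 126, 56.8, 44.3 and 90.1 CPM (1.15, 0.64 to 1.68). Their T barcode ratios in the tumour were -0.026 and 0.57. Mki67 or Top2a was detected in 31.2% of NanoCa and 36.95% of mock tumour members, and thinned in 16.9% and 21.4%. The intervals overlapped, so the share of members with either gene was not higher with NanoCa.

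The share of members with germinal-centre markers moved with these lists. Without those members, an alternative added after the data were seen, the tumour medians were -0.18 for naive and follicular genes (2 lower, 1 higher of 13), -0.31 for homing and egress, -0.21 for immediate-early and -0.36 for MHC class II genes. The cell cycle median became -0.029, with 2 of 18 called higher, and only 3 germinal-centre genes could still be measured. In the node the medians became 0.088, 0.052, 0.18 and 0.089 for the first 4 lists, and 0.0046 for germinal-centre genes. Nr4a1, Nr4a3, Btg2, Fcer2a, Satb1, S1pr1 and P2ry10 were still called lower in the tumour, but Nr4a1, Nr4a3 and Fcer2a were no longer called higher in the node.

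**Figure D3:**
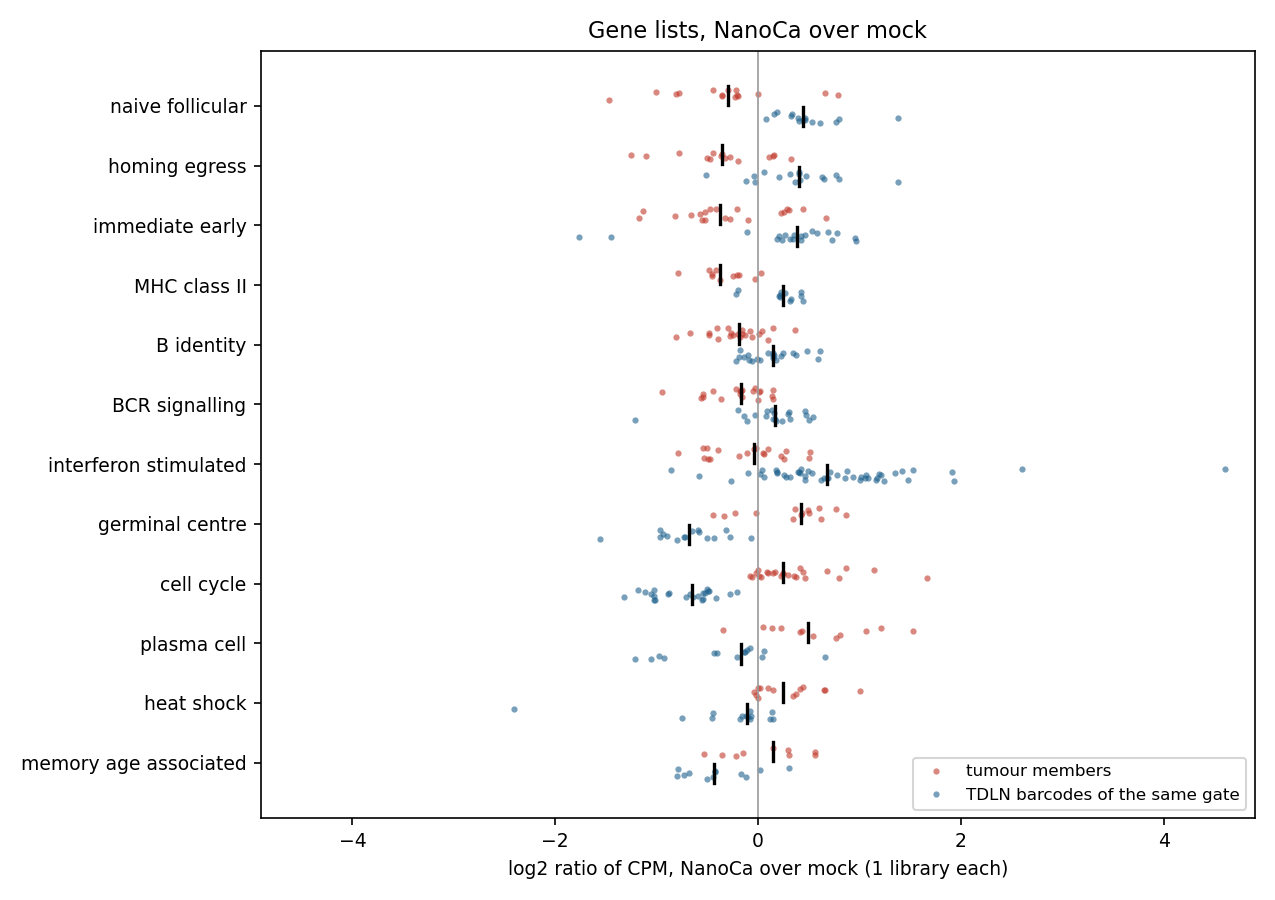
Log2 ratio of CPM, NanoCa over mock (x axis), of each measured gene in 12 gene lists (y axis), in tumour members (red) and in node barcodes of the same gate (blue), with black bars at the medians. The naive and follicular medians are -0.30 and 0.45, the germinal-centre medians 0.43 and -0.68, and the interferon-stimulated medians -0.042 and 0.68.

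Of 19 interferon-stimulated genes measured in tumour members, 0 were called higher and 1, Samd9l, lower, with a median of -0.042. In the node 27 of 48 were called higher and 1 lower, with a median of 0.68. Without members carrying germinal-centre markers 15 of 44 were higher there, with a median of 0.43. The tumour and node medians thus rest on different gene sets. Between tissues with mock, 13 of 37 were called higher and 0 lower in the tumour (median 0.49), against 12.1% higher of all genes. With NanoCa 7 of 45 were higher and 12 lower (median -0.030), against 16.1% and 14.0% of all genes. Irf7, the transcription factor that amplifies interferon production, was found at 58.7 and 56.8 CPM in the tumour and 113 and 44.1 CPM in the node. Its tumour log2 ratio was 0.05 (-0.53 to 0.64), an interval that leaves out the 1.35 (1.20 to 1.51) of the node. Ifi27l2a was at 446 and 367 CPM in the tumour (0.28, 0.07 to 0.50) and 559 and 241 CPM in the node (1.21, 1.15 to 1.28). For Ifit3, with 13 and 10 UMIs in the tumour, the interval ran from -1.63 to 1.02 and a difference was not detectable at this depth beyond those bounds. Of 4 interferon gamma-induced genes measured in the tumour, 2 were called lower (median -0.43). Irf1 was at 91.8, 187, 116 and 100.3 CPM (-1.03, -1.41 to -0.65), with a ratio of -0.72 in tumour T barcodes. Gbp2, a guanylate-binding protein, was at 43.4, 85.9, 20.9 and 48.6 CPM (-0.99, -1.55 to -0.43).

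The genes with the highest ratios in tumour members were in part also high in other cells of the same library. By a rule that ranked called genes on the interval bound nearest to equality, they were Slpi, Raly, Pcbd2, Iscu, Arf5, Bcl7c, Bri3 and Srm. Raly, an RNA-binding protein, was at 213, 30.5, 170 and 264 CPM, so the mock tumour stood apart from the other 3 libraries. Its log2 ratio of NanoCa to mock was 2.80 (2.17 to 3.50) in members, 2.08 in T barcodes and 2.14 in carcinoma barcodes. Iscu, a scaffold of iron-sulfur cluster assembly, was at 110, 15.2, 94.1 and 103 CPM (2.85, 1.96 to 3.88), with 2.40 and 2.44 in T and carcinoma barcodes. Srm, spermidine synthase, was at 163, 37.4, 33.8 and 90.5 CPM (2.12, 1.54 to 2.76), with 2.18 and 2.68. Slpi was the exception, with -0.11 and -0.41 in those barcodes. Of the 333 genes called higher in members, 145 of 308 measured in tumour T barcodes were called higher there too, 146 of 309 in carcinoma barcodes and 151 of 312 in myeloid barcodes, against 7.46%, 6.93% and 8.31% of all genes in those classes. In all 3 classes 115 were called higher, a count for which the share among all genes is not given. In the node 128 of 330 were called lower in gated barcodes and 2 higher, against 11.1% and 4.30% of all genes there. A difference of the whole mock tumour library and a response of B cells cannot be told apart for these genes.

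The genes with the lowest ratios, by the same rule, were Igfbp7, Vps37b, Lama2, Marchf3, B3gnt7, Col4a2, Brip1 and Nr4a1. Vps37b, a subunit of the endosomal sorting complex ESCRT-I, was at 131, 385, 594 and 392.3 CPM, with the NanoCa tumour the lowest library (-1.56, -1.85 to -1.27) and no member above 10 UMIs in the tumour. Its ratio was -0.82 in T barcodes and 0.25 in carcinoma barcodes. Marchf3, a membrane ubiquitin ligase, was at 13.6, 52.7, 52.7 and 42.1 CPM (-1.95, -2.90 to -1.08). Igfbp7 and Col4a2, genes of endothelial and stromal cells, had 33 of 48 and 35 of 54 UMIs of the mock tumour in 1 member with 8813 UMIs, and Brip1 had 29 of 49 in 1 member. Of the 297 genes called lower, 29 of 274 were also lower in tumour T barcodes, 14 of 267 in carcinoma barcodes and 21 of 275 in myeloid barcodes, against 3.48%, 2.41% and 2.77% of all genes there.

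**Figure D4:**
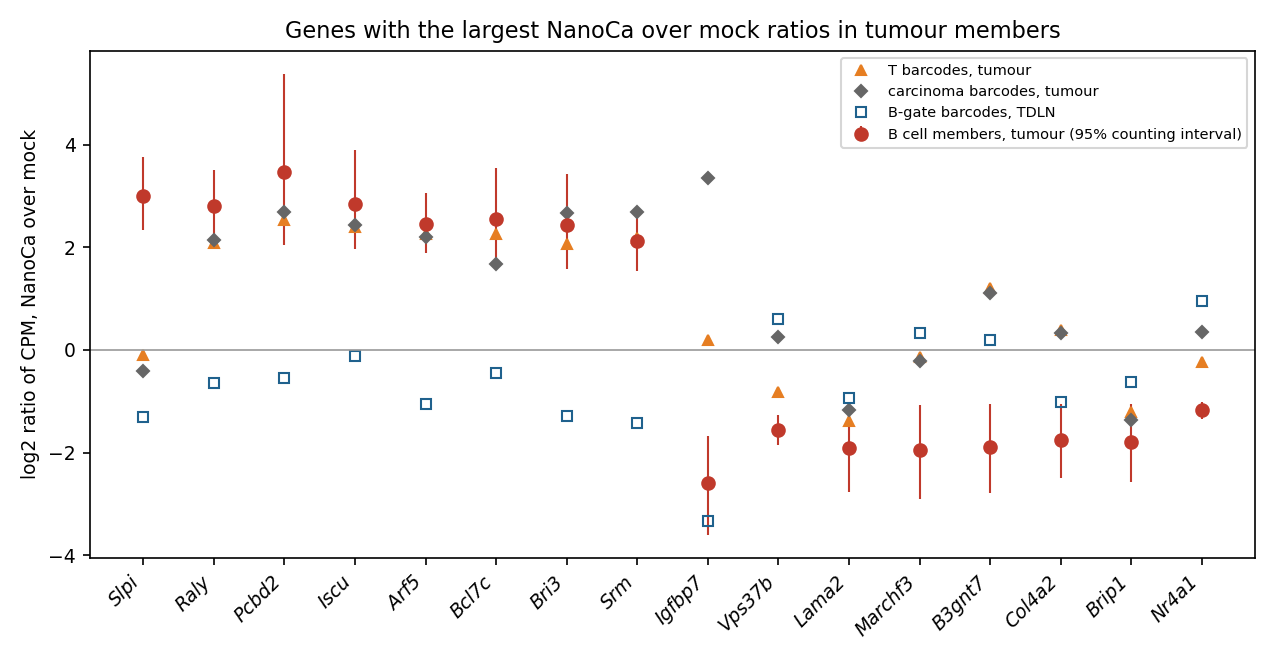
Log2 ratio of CPM, NanoCa over mock (y axis), of the 16 named genes (x axis) in tumour members (red circles, 95% counting intervals), tumour T barcodes (triangles), carcinoma barcodes (diamonds) and gated node barcodes (open squares). From Raly to Srm the triangles and diamonds lie near the red circles and the squares below 0, while for Vps37b and Nr4a1 the red circles, at -1.56 and -1.18, lie below every other symbol.

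Tumour members were set against the gated barcodes of the node within each treatment. Of 9928 genes measured with mock, 1201 (12.1%) were called higher and 1001 (10.1%) lower in the tumour, and of 9838 with NanoCa, 1579 (16.1%) and 1375 (14.0%). Higher in both pairs were 693 genes, 57.7% of the mock and 43.9% of the NanoCa list, and lower in both were 233, 23.3% and 16.9%. Tissue, library and depth cannot be told apart in these ratios.

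Heat-shock genes were higher in the tumour with both treatments, by call. Of 14 heat-shock genes 7 were called higher with mock and 10 with NanoCa, and 0 lower, with medians of 0.83 and 1.16. Hspa1a, an inducible HSP70 chaperone, was at 679, 338, 39.0 and 35.9 CPM, log2 ratios of tumour to node of 3.24 with mock and 4.12 with NanoCa. T barcodes gave 2.74 and 4.69 for the same gene, so the gene was higher in the tumour in another lymphocyte class as well. Of the memory and age-associated genes, 7 of 10 measured were called higher with mock and 8 of 11 with NanoCa (medians 1.68 and 1.76). Those called in both pairs were Vim, S100a6, Lgals1, Ahnak, Cd44 and Itgb1, known for the cytoskeleton, calcium binding or adhesion in many cell types, and the transcription factor Zeb2. Vim, an intermediate filament protein, was at 2376, 1925, 466 and 524 CPM, and S100a6, a calcium-binding protein, at 3026, 2467, 348 and 493 CPM. In T barcodes their ratios were 1.40 and 2.10 with mock and 2.15 and 3.12 with NanoCa, beside 1.88 and 2.33, and 2.35 and 3.12, in members. Tbx21, which encodes the factor T-bet of age-associated B cells, had 0 and 1 UMI and Cxcr3, a chemokine receptor, 0 UMIs in both tumour libraries. With at least 10 UMIs as the minimum the list medians were 0.57 with mock and 1.04 with NanoCa.

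Genes of resting B cells were called lower in the tumour in the NanoCa pair, while the counts of the mock pair lay near the share of all genes. Of 15 naive and follicular genes 12 were called lower and 0 higher with NanoCa (median -1.02) and 2 lower and 1 higher with mock (median -0.11). Of 12 MHC class II genes 11 were called lower with NanoCa (median -0.98) and 1 with mock (-0.28), and of 22 B cell identity genes 12 and 2 (-0.62 and -0.39). Without members carrying germinal-centre markers, which held 51.4% of the UMIs of the mock node barcodes, the mock pair had 5 of 15 naive and follicular, 6 of 12 MHC class II and 11 of 22 B cell identity genes called lower, with medians of -0.51, -0.60 and -0.59. The NanoCa pair then had 12, 9 and 15. Bank1, a B cell scaffold protein, was at 266, 372, 693 and 461 CPM, with tissue ratios of -1.38 (-1.55 to -1.22) with NanoCa and -0.31 (-0.49 to -0.13) with mock. Cxcr5, the receptor for the follicle chemokine, was at 68.0, 87.3, 143 and 147 CPM and was called lower in both pairs (-0.75 with mock, -1.07 with NanoCa), and Ccr7 with NanoCa (-1.02, against -0.42 with mock), and in both pairs without the members carrying germinal-centre markers. Of 16 germinal-centre genes 12 were called lower and 0 higher with mock (median -0.83). With NanoCa 2 were called higher, a share under that of all genes, and 0 lower, with a median of 0.36 and a log2 ratio of the summed list of -0.029 (-0.095 to 0.036). Of 24 cell cycle genes 6 were lower and 1 higher with mock, and 17 higher and 0 lower with NanoCa. The same 4 libraries enter the treatment ratios above, so these values are not independent of them.

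The 10 genes ranked highest in both pairs were Il1rl1, Ghr, Hspa1b, Ccl12, Hspa1a, Zfpm2, Ccn1, Magi1, Ptgs2 and Ereg. Ptgs2, the prostaglandin-forming enzyme COX-2, was at 168, 133, 9.75 and 13.7 CPM, with tissue ratios of 3.28 and 4.11 in members and 3.30 and 3.13 in T barcodes. Ccl12, a monocyte-attracting chemokine, was at 61.2, 55.5, 1.78 and 4.25 CPM, and no tumour member held more than 3 UMIs of it. It was detected in 16.1% and 13.25% of tumour members and in 14.1% and 13.5% of tumour T barcodes. Il1rl1, the interleukin 33 receptor, was at 74.0, 52.7, 3.56 and 3.05 CPM, and 17 of its 38 UMIs in the mock tumour came from 1 member. T barcodes also had both genes higher in the tumour. Their ratios with mock and NanoCa were 2.87 and 4.485 for Ccl12 and 2.385 and 2.915 for Il1rl1. Those ranked lowest included Kctd12, Orai1, Pim1, Jund, Bcl2a1d, Dusp2, Gramd3, Grasp and Cerk. Orai1, the pore of the store-operated calcium channel, was at 35.7, 23.6, 98.0 and 123 CPM, with ratios of -2.38 (-3.17 to -1.70) with mock and -1.46 (-1.94 to -1.01) with NanoCa. Pim1, a survival kinase, was at 116, 91.5, 247 and 280 CPM, and Bcl2a1d, an antiapoptotic BCL2 relative, at 18.7, 20.8, 65.1 and 61.1 CPM. T barcodes also had lower Orai1 in the tumour, by ratios of -2.88 and -0.90, but Bcl2a1d was at 0.66 and 0.36 there.

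**Figure D5:**
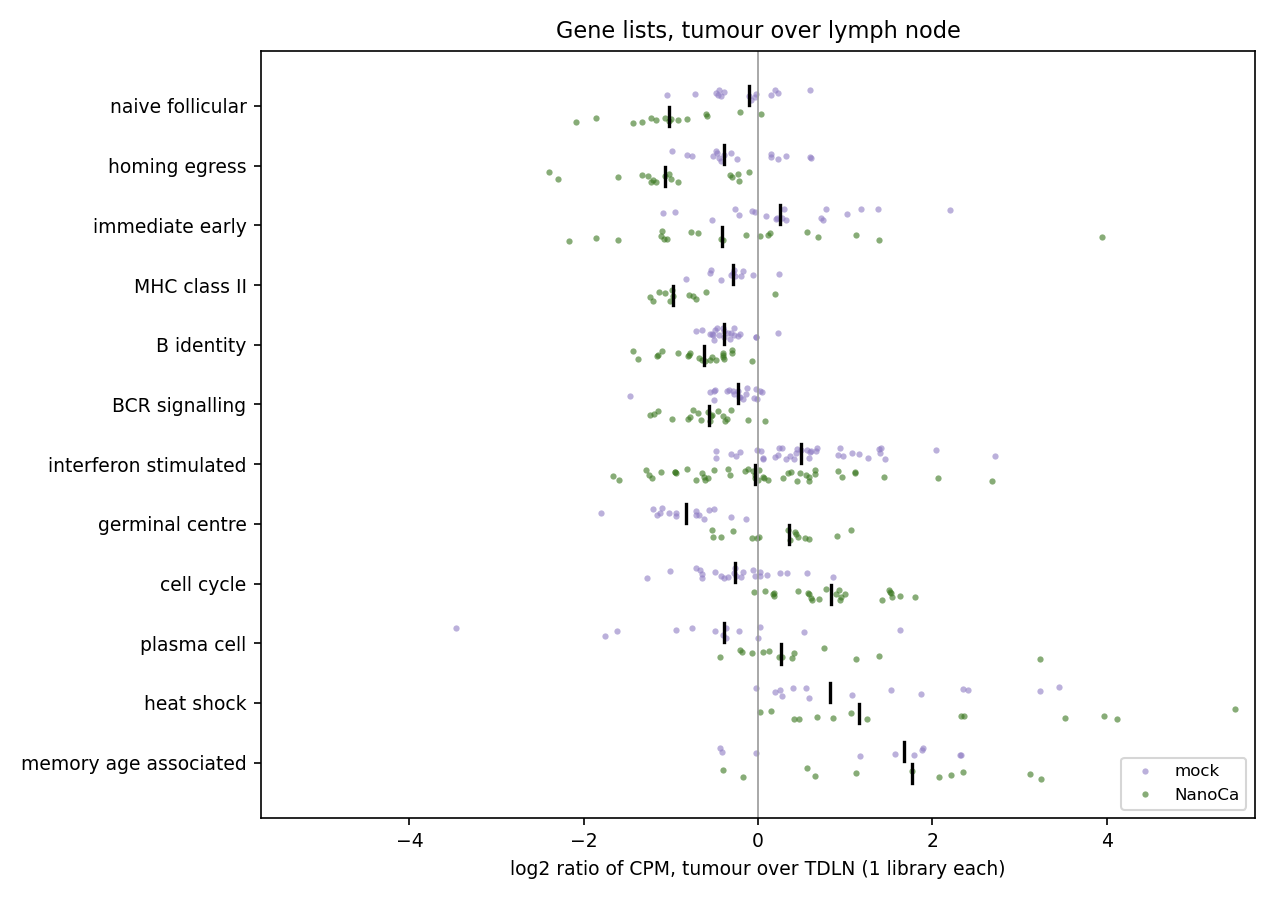
Log2 ratio of CPM, tumour over node (x axis), of each measured gene in 12 gene lists (y axis), for the mock (violet) and NanoCa (green) pairs, with black bars at the medians. The heat-shock medians are 0.83 and 1.16, while germinal-centre genes have medians of -0.83 with mock and 0.36 with NanoCa.

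RNA of other cell types was part of these profiles. Summed over the list of myeloid markers, members held 1245, 1096, 485 and 714 CPM, over carcinoma markers 357, 287, 45.5 and 173 CPM, and over fibroblast markers 389, 355, 28.8 and 376 CPM. In the mock node 1212 of 1341 UMIs of the collagen gene Col1a1 came from 1 barcode with 52562 UMIs, 2 of Cd79a and none of Cd79b. Lyz2, the lysozyme of macrophages, was detected in 48.7% and 41.8% of tumour members and in 44.4% and 44.8% of tumour T barcodes, against 9.47% and 31.3% of node members. T cell markers summed to 119, 158, 247 and 204 CPM, with 5 of 10 at 0 UMIs in each tumour library, Trbc2, Cd8a, Cd8b1 and Bcl11b in both. Plasmacytoid dendritic cell markers summed to 608, 557, 520 and 545 CPM, with Siglech at 0 UMIs in both tumour libraries. In each tissue pair 2 of the 4 measured were called higher in the tumour and 0 lower. Dendritic cell markers summed to 78.2, 84.6, 66.5 and 60.95 CPM, with Xcr1, Clec9a and Cd209a at 0 UMIs in both tumour libraries. Of the 3 measured, 1 was called higher and 1 lower in each tissue pair. The part of this RNA in the tissue ratios was not tested.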

How the data were processed

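Droplet single-cell RNA-seq counts were analysed for 4 libraries, 2 of tumour and 2 of draining lymph node, with 10x 3' version 2 chemistry per the labels. The deposited matrices hold whole UMI counts per gene and barcode that the authors made with Cell Ranger 7.1.0, per the file headers. Neither the labels nor the headers name a genome build, and coordinates were not used.

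Barcodes were kept with at least 200 genes and at most 10% mitochondrial UMIs, and the B cell gate was applied to each library. The libraries held 167924801 (NanoCa) and 148121144 (mock) UMIs in the tumour. Member UMIs were summed per library and scaled to CPM. Ratios have exact conditional binomial 95% intervals and shares Clopper-Pearson intervals (scipy 1.17.1), for counting error only. With no count in a library, a floor of 3 counts was used. A gene was called at 50 or more UMIs over both libraries, at least 1.5-fold, with the interval excluding equality. Doublets were scored with Scrublet in scanpy 1.11.5 and kept. TMM factors came from edgeR 4.0.16.

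Named genes were the 8 highest and 8 lowest between treatments and the 10 highest and lowest between tissues, ranked by the interval bound nearest to equality among called genes that reached 50 CPM in 1 library or more, leaving out gate, mitochondrial, ribosomal, hemoglobin, immunoglobulin variable and sex-linked genes, together with members of the lists. The members and lists were chosen with earlier results of these data known. A few genes that these lists and rules hold are not reported here. Each group held 1 library, so no test between groups was made. Alternatives covered scaling, filters on low counts, doublets, the gate, depth and the denominator.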

Additional observations from a re-analysis of the deposited data

Results flagged for a closer look

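The lists and genes given here had opposite signs of the NanoCa to mock ratio in tumour members and in the gated lymph node barcodes. The lists had medians of at least 0.2 in size in both tissues, over at least 10 genes, and the named genes were called in both tissues, in opposite directions. Other lists and named genes also had opposite signs without meeting these limits. The difference between the tissues was not tested, since each group held 1 library. The list medians of the log2 ratio, tumour first and node second, were -0.37 and 0.39 for immediate-early genes, -0.28 and 0.29 for NF-kappaB targets, and -0.36 and 0.41 for homing and egress genes. They were -0.295 and 0.45 for naive and follicular genes and -0.38 and 0.24 for MHC class II genes. The reverse order held for germinal-centre genes, at 0.43 and -0.68, and for cell cycle genes, at 0.25 and -0.66. Thinned to 1000 UMIs, the tumour medians of immediate-early and MHC class II genes came to -0.12 and -0.099, under the limit of 0.2 in size.

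Among single genes, Slpi was at 3.001 in the tumour and -1.31 in the node, Raly at 2.80 and -0.64, and Arf5, a small GTPase, at 2.45 and -1.06. Bri3 was at 2.44 and -1.285, and Srm at 2.125 and -1.42. Vps37b was at -1.56 and 0.60, and Nr4a1 at -1.18 and 0.96. Of the 248 Slpi UMIs in the NanoCa tumour, 133 came from 1 member.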

How the results depend on the processing

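Counts of called genes depended on the minimum of UMIs, the gate and the depth. For NanoCa against mock in the tumour, 333 higher and 297 lower calls became 511 and 488 at a minimum of 10 UMIs, 524 and 553 with no minimum, and 99 and 65 after thinning to 1000 UMIs. With a UMI of Cd79b also required, 158 were lower. In the node 464 higher and 1192 lower calls became 203 and 477 after thinning, and 230 were higher without germinal-centre marker members, a setting chosen after seeing the data. For tumour against node with mock, 1201 higher calls became 1935 with no minimum, 798 with Cd79b required and 327 thinned, and 1001 lower became 606 thinned. With NanoCa, 1579 higher became 2578 with no minimum and 595 thinned, and 1375 lower became 850 thinned. Thinning and the minimum change how many UMIs and genes are tested by construction, and for the Cd79b gate the cause was not tested. The node share ratio of 0.21 became 0.036 among barcodes with Ptprc. The tumour share ratio of 0.40 lay between 0.23, with all barcodes thinned before the gate, and 0.61, with Cd79b required.

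Without germinal-centre marker members the germinal-centre median turned to 0.0046 for NanoCa against mock in the node and to -0.036 for tumour against node with NanoCa, with the cause not tested. In that last comparison the marginal zone and B1 median turned to 0.016 when thinned, and that of regulatory cytokines to 0.015 at 10 UMIs, 0.115 thinned and 0.106 without germinal-centre marker members. The other 74 values of these comparisons moved less, as did 699 of the list and gene values, while 253 moved by more, among them the tumour cell cycle median, at -0.029 without germinal-centre marker members. For called genes this compares totals, not which genes were called. Of the 333 higher and 297 lower tumour calls between treatments, 171 and 152 were kept without germinal-centre marker members. With at least 3 UMIs of Cd79a 261 and 184 were kept. The planned subtraction of a carcinoma profile scaled to keratins was not run, because 658 of 780 keratin UMIs of the mock node members lay in 1 barcode. No paired analysis was possible because each group holds 1 library. Low tumour depth limits genes with few UMIs.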
